A study of Mus musculus with 8 samples.

Results

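The 10 genes Rara, Rarb, Rarg, Rxra, Aldh1a1, Aldh1a2, Aldh1a3, Crabp2, Dhrs3 and Rdh10 make, carry and sense retinoic acid, and they were examined in peak lists of H3K27ac, an acetylation of histone H3 found where promoters and enhancers are in use. They are 10 of 21938 protein-coding genes of GENCODE M21, and they were chosen from a retinoic acid pathway that an earlier look at the same lists had brought up for its regions acetylated in the test tumors, so every value below is a description and none carries a test. A locus was the gene body plus 50 kb either side on the mouse genome mm10. Chromatin immunoprecipitation sequencing had been done on 4 breast tumors of Balb/c mice. The 2 control tumors came from PyMT;Rag1KO mice, in which the MMTV promoter drives the polyoma middle T oncogene in the mammary gland and loss of Rag1 leaves the host without T and B cells of its own. The 2 test tumors came from K14-TSLPtg;PyMT;Rag1KO mice, in which the keratin 14 promoter also drives the cytokine thymic stromal lymphopoietin (TSLP). Mice of both groups had been given wild-type CD4+ T cells when 4 weeks old, and tumors were taken at terminal size. The 4 tumors came from different mice, and the titles of the test samples read cyst where those of the control samples read tumor.

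Retinoic acid is made from retinol in a pair of oxidation steps. Rdh10 turns retinol into retinaldehyde, Dhrs3 turns retinaldehyde back into retinol, and the Aldh1a enzymes oxidize retinaldehyde to retinoic acid. Crabp2 carries retinoic acid to the nucleus, where the receptors encoded by Rara, Rarb and Rarg bind DNA as partners of retinoid X receptors such as Rxra. The receptors recognize direct repeats of a hexamer, a short run of bases, and several pathway genes, Rarb, Crabp2 and Dhrs3 among them, are known to be induced by retinoic acid in other cells. In the breast the pathway is known for its part in epithelial differentiation.

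The lists held 67850 to 69861 intervals in the control and 59762 to 65763 in the test tumors. They covered between 64.4 and 73.1 Mb per tumor, least in test 2. The lists hold positions and the names of merged caller peaks but no read counts or scores, so the depth behind them is unknown and a wider interval may also come from a deeper library. Marker genes were summarized as the percent of the 10 kb either side of their start in peaks, summed over a list. All 10 luminal epithelial markers had peaks, with sums between 420 and 441 in every tumor. The endothelial list was lower in both test tumors, 8.83 and 5.53 against 21.4 and 21.9, with Tie1, Vwf and Erg at 0 in every tumor among its 8 genes. The fibroblast list of 10 genes was 52.5 and 32.4 in the control and 31.4 and 9.09 in the test tumors, with Lum, Fap and Thy1 at 0. Gene by gene, 3 endothelial and 2 fibroblast genes were lower in both test tumors, and 0 of either list were higher. The T cell list, of which 7 of 8 genes were matched, was 9.60 and 10.2 against 7.47 and 1.89, and none of its matched genes was at 0 throughout. Of the matched genes 2 were lower and 1 was higher in both test tumors, and the mean per gene was at most 1.46% in any tumor. By staining and flow cytometry of cells, the paper reports proliferating CD4+ T cells in breast tumors of the TSLP group. The myeloid list of 9 genes (Adgre1 at 0) ranged from 150 to 167 in the control and from 114 to 163 in the test tumors. The myoepithelial list of 7 genes (Trp63 at 0) split the tumors differently, with 40.7 and 45.7 in control 1 and test 1 against 15.8 and 12.3 in control 2 and test 2. In the adipocyte list 4 of 6 genes were at 0 and the sums were 12.4 to 17.4. What part these shifts have in the values below was not tested. In a bulk tumor, fewer cells of a type and less acetylation per cell cannot be told apart.

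The loci did not move as a block (plot of coverage by tumor). Rdh10 was the one locus with more peak coverage in both test tumors than in both control tumors, while Aldh1a2 and Aldh1a3 had less, and the other 7 overlapped between the groups. Nearer the promoters, acetylation at the internal start of Rarb and within 10 kb of the start of Crabp2 was also wider in both test tumors, while that within 10 kb of the start of Rara was wider in both control tumors. Over all 18693 loci with any peak, 17.3% were higher in both test tumors and 13.0% in both control tumors, so 1 and 2 of 10 lie near what these lists hold at large. The median difference of the members, test minus control, was −0.104 percentage points of the locus, and that of all loci was 0.0192. With 2 tumors in each group, an exact two-sided permutation of the tumors cannot give a p-value below 0.333.

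**Figure D1:**
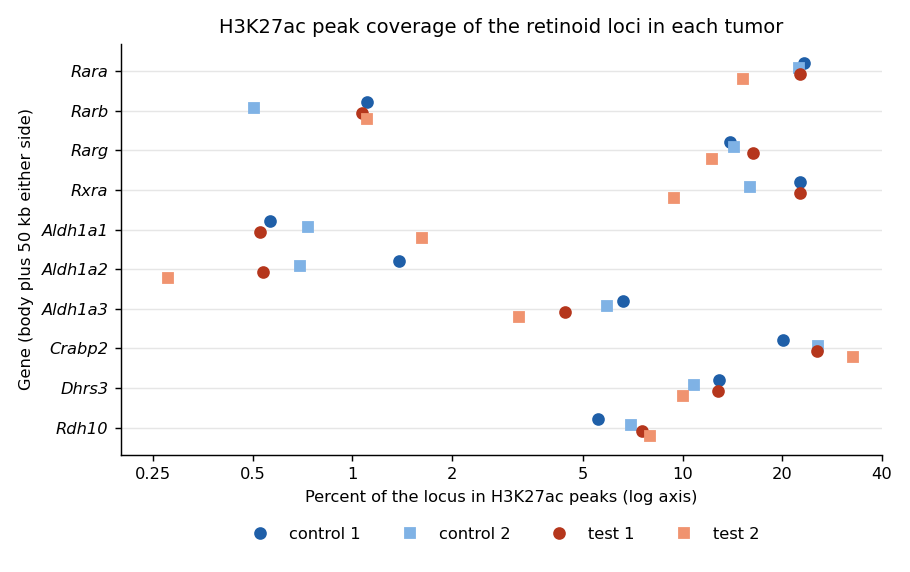
Percent of each locus (gene body plus 50 kb either side) in H3K27ac peaks, on a log axis, with 1 point per tumor (blue for control, red for test). Rdh10 has both test points on the right of both control points, Aldh1a2 and Aldh1a3 have them on the left, and the levels run from under 1% at Aldh1a2 to 32.8% at Crabp2 in test 2.

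**Figure D2:**
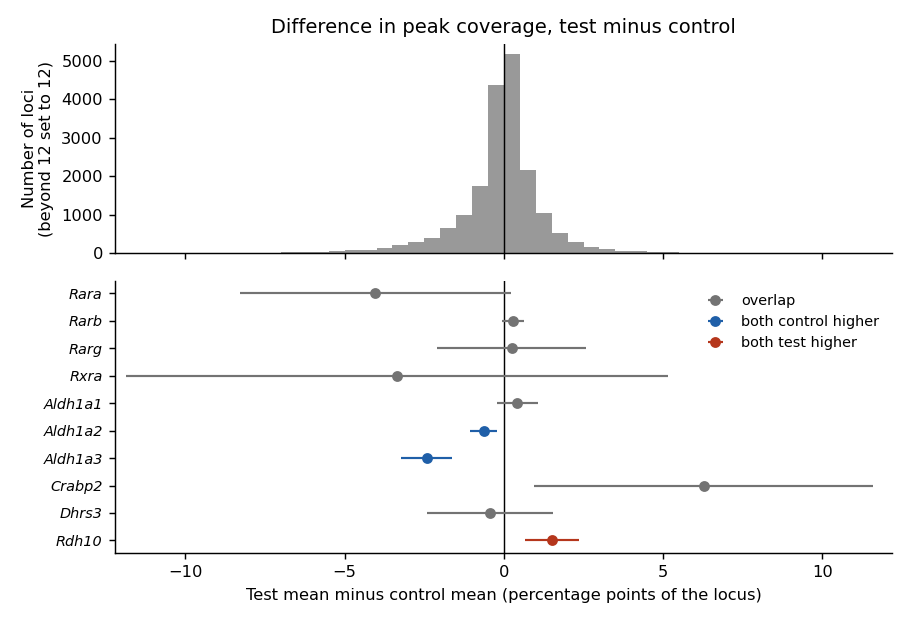
Histogram of the difference in peak coverage, test mean minus control mean in percentage points, over 18693 loci (top), with the same difference for each retinoid gene (bottom, bars show the SD over the 4 test and control pairings). Crabp2 at 6.27 and Rara at −4.03 lie farthest from 0, each with an SD close to the difference itself.

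Rdh10 (chr1:16105774-16133734, plus strand), whose product makes retinaldehyde from retinol, is the first step. Its locus was covered by peaks over 5.53% and 6.95% in the control and 7.52% and 7.97% in the test tumors. Both test tumors lay above both control tumors. The difference was 1.51 percentage points, with an SD of 0.859 over the 4 pairings, which reuse each tumor. The gap was in the gene body, with 15.7% and 21.6% in the control and 23.7% and 24.9% in the test tumors. Within 10 kb either side of the start the values were 29.4% and 31.5% against 37.3% and 37.2%. Over all genes with a peak in that window, 20.9% were higher in both test tumors and 11.6% in both control tumors, and among the members 2 and 1 of the 7 with a peak there were. The start of Rdh10 shares a region of several kilobases with the ribosomal protein gene Rpl7 that was present in all 4 tumors, at 3510 and 3798 bp in the control and 3665 and 3824 bp in the test tumors. The groups overlapped in the width of that region, while the 2 kb around the Rdh10 start lay in peaks over 91.7% and 97.3% in the control and 99.4% and 99.1% in the test tumors. The gene body differed more, where the intronic region chr1:16109948-16112792 held 2067 and 2248 bp of peak in the control and 2414 and 2845 bp in the test tumors. A neighbouring intronic region 7.62 kb from the start held 303 and 0 bp in the control and 882 and 602 bp in the test tumors. Without control 1 the difference over the locus was 0.802. With only peaks of at least 1 kb counted it was 0.147 and the groups overlapped.

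The 3 Aldh1a genes, which carry out the last step of synthesis, had little acetylation at their starts. None had a peak within 1 kb of its annotated start in the test tumors, and in the control tumors the sole one was a 197 bp peak near the Aldh1a3 start in control 1. Aldh1a1 (chr19:20492715-20643465, plus strand) was covered over 0.566% and 0.734% in the control and 0.525% and 1.62% in the test tumors, with only test 2 apart from the others. Its locus held 1 of the test-only regions, those with a peak in both test tumors and neither control tumor. It was chr19:20686387-20687624, downstream of the gene in the flank, with 166 bp of peak in test 1 and 1238 bp in test 2, and the nearest coding start was that of Aldh1a7.

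Aldh1a2 (chr9:71215789-71296243, plus strand) had no peak in its body or downstream flank in any tumor. Its coverage of 1.39% and 0.697% in the control and 0.536% and 0.277% in the test tumors came wholly from 2 upstream regions whose nearest start was that of Aqp9, an aquaporin gene. Both test tumors lay below both control tumors, and which gene these regions serve was not tested. The difference of −0.635 percentage points was −0.290 without control 1 and −0.981 without control 2. With 25 kb flanks the locus held no peak.

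Aldh1a3 (chr7:66390890-66427517, minus strand) was covered over 6.58% and 5.89% in the control and 4.41% and 3.20% in the test tumors. Both test tumors lay below both control tumors, and the difference was −2.43 percentage points with an SD of 0.802 over the 4 pairings. Most of the gap was downstream, toward Lrrk1 and Gm10974, where the flank was covered over 8.58% and 9.24% against 5.14% and 2.21%. In the part of the locus nearest to a start of Aldh1a3 itself the values were 6.37%, 4.65%, 4.68% and 4.43%, and the groups overlapped. The main element there was chr7:66444620-66447724, 18.7 kb upstream of the start, with 2969, 2318, 3088 and 2279 bp of peak. The gene body alone gave a difference of 0.0683 percentage points in the other direction.

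Both control-only regions of the 10 loci, with a peak in both control tumors and neither test tumor, lay at Aldh1a3, 275 and 409 bp wide and 61.6 and 61.1 kb downstream of its start. The narrower is shown because its letters are a run of short purine-rich repeats, and 88% of it is repeat-masked in the reference against 16.8% of all bases in peaks. It is written 5′ to 3′ on the strand of Aldh1a3, as in the C57BL/6J reference rather than the Balb/c mice studied, and it has no hexamer of the receptors to put in capitals.
Aldh1a3 control-only region, chr7:66365748-66366022, mm10, minus strand: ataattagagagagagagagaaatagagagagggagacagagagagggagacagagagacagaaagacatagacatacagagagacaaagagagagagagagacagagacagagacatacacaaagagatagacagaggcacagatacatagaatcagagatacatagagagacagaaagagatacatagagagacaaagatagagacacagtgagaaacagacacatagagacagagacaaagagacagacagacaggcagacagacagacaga

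Dhrs3 (chr4:144892827-144928209, plus strand), which returns retinaldehyde to retinol, had the most regions of the 10 genes. The 2 kb around its start lay wholly within peaks in all 4 tumors, in an interval between 4609 and 4839 bp wide. Over the locus the coverage was 12.9% and 10.8% in the control and 12.8% and 10.0% in the test tumors, and the groups overlapped. Introns of Dhrs3 held the other 2 test-only regions, 8.46 and 10.9 kb from the start. The first had 197 and 195 bp of peak in test 1 and test 2, and the second had 166 and 273 bp. Each lay within 250 bp of a region that control tumors also held, and with peaks within 1 kb joined the 10 loci kept 1 test-only region. The first is shown whole, with hexamers of the receptors in capitals, of which it has 1.
Dhrs3 test-only region, chr4:144901169-144901410, mm10, plus strand: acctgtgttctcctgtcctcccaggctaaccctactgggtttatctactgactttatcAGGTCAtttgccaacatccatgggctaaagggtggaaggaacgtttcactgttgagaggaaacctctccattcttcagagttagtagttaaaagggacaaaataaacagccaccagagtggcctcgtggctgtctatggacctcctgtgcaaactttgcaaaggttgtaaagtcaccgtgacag

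Crabp2 (chr3:87948666-87953376, plus strand), the carrier, had the highest mean coverage of the 10 loci, above 98.1% of all loci. Its locus was covered over 20.03% and 25.7% in the control and 25.5% and 32.8% in the test tumors. Control 2 lay just above test 1, so the groups overlapped, and the locus also holds the promoters of Hdgf, Mrpl24, Isg20l2, Rrnad1 and Nes. Within 10 kb of the Crabp2 start the groups separated, with 16.0% and 32.6% in the control and 44.6% and 42.4% in the test tumors. The difference there was 19.2 percentage points with an SD of 9.67, and control 2 lay nearer to the test tumors than to control 1. The promoter itself did not order the tumors by group, since 49.8% and 88.3% of the 2 kb around the start lay in peaks in the control and 71.0% and 69.0% in the test tumors. The widest gap lay upstream. An element centred 4.92 kb before the start (chr3:87941890-87945602) held 453 bp of peak in control 1 and 2027 bp in control 2, and 3207 and 2972 bp in test 1 and test 2. A second one 7.64 kb before the start held no peak in control 1, a narrow one in control 2, and 495 and 920 bp in test 1 and test 2. The gene body, only 4.71 kb long, was also higher in both test tumors, at 30.9% and 36.7% against 48.2% and 38.0%, with control 2 close to test 2. So was a region 10.3 kb downstream of the start, with 3735 and 4071 bp against 4739 and 5164 bp. The share of gene bodies or regions over all genes that separate in this way was not counted. Without test 2 the difference over the whole locus went from 6.27 to 2.62 percentage points, and without control 1 to 3.45. The centre of the element 4.92 kb upstream is shown, and it has no hexamer to put in capitals.
Crabp2 upstream element, centre, chr3:87943596-87943895, mm10, plus strand: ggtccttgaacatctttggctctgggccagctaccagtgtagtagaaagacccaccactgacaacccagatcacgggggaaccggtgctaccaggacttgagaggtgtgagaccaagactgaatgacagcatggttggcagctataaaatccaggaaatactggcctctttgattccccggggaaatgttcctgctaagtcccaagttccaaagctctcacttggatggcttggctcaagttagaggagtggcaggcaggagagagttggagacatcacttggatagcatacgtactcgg

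Among the receptors, Rarb (chr14:16430839-16819156, minus strand) had the lowest coverage and a sharp local difference. Over the whole locus it was covered over 1.11%, 0.505%, 1.07% and 1.11%, and only control 2 stood apart. No tumor had a peak near its annotated start. Inside the gene, 244 kb downstream, lies the start of the transcript Rarb-201, whose promoter is known to be switched on by retinoic acid through a response element of its own. Of the 2 kb around that start, 7.75% lay in a peak in control 1 and 0% in control 2, against 41.9% in test 1 and 60.6% in test 2. Both test tumors were higher, by 47.4 percentage points on average. The peak of control 1 was 155 bp wide, those of test 1 and test 2 were 838 and 1212 bp, and control 2 had none within 20 kb. Over all distinct coding starts with a peak within 1 kb, 20.4% were higher in both test tumors and 9.70% in both control tumors. Among the members 3 of 23 such starts were higher in both test tumors, a neighbouring pair at Rarb and that of Rdh10, and 0 were higher in both control tumors. With only peaks of at least 1 kb counted, test 1 lost its peak there and the difference was 30.3.

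The promoter sequence of Rarb carries such a response element. RefSeq places the start of this transcript at 16575476 on chromosome 14, and the 250 bases before it (GRCm38, the assembly of mm10) are shown with both hexamers of its direct repeat in capitals, while 1 further single hexamer is left in lower case.
Rarb, 250 bases before the RefSeq start, chr14:16575477-16575726, mm10, minus strand: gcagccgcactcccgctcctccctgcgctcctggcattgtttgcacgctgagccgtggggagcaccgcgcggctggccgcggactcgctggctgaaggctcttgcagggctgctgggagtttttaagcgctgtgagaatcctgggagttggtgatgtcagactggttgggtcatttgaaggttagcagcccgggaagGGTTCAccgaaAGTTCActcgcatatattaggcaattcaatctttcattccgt

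The capitals are a direct repeat with 5 bases between the hexamers (DR5), 37 to 53 bases before the RefSeq start. GENCODE starts Rarb-201 farther upstream, at 16575543, so by that start the match lies inside the transcript, 22 bp downstream. The peaks of test 1 and test 2 lay over it, the peak of control 1 ended 78 bp from it, and control 2 had no peak near it (map of peaks around start sites). In the 300-base promoter windows of RefSeq, 32 of 32851 (0.0974%) hold a DR5. Of the 10 genes 7 had such windows, 15 in all, and that of Rarb was the 1 with a DR5.

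**Figure D3:**
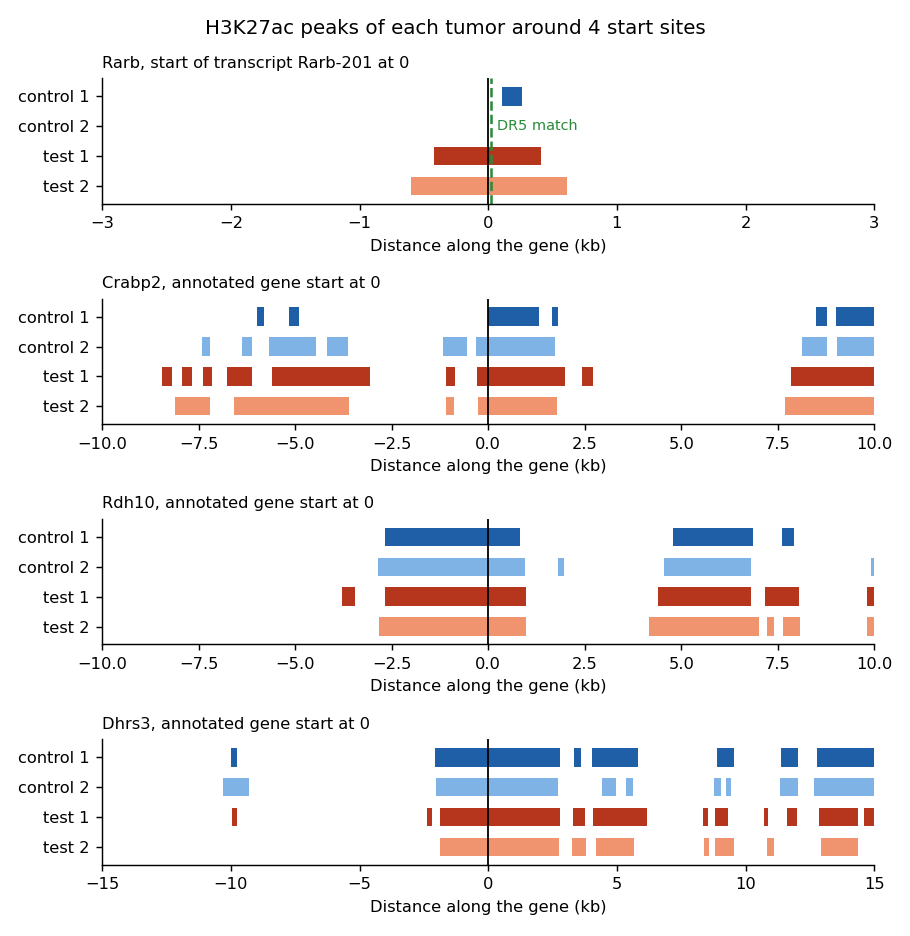
H3K27ac peaks of each tumor (horizontal bars, blue for control and red for test) by distance in kb along the gene from the start of Rarb-201 and from the annotated starts of Crabp2, Rdh10 and Dhrs3; the dashed line marks the DR5 match of Rarb. The bars of test 1 (838 bp) and test 2 (1212 bp) cross the Rarb start, control 1 has a 155 bp bar beside it and control 2 none, and the Crabp2 bars between 3 and 7 kb upstream cover more in both test tumors, while the bar about 1 kb upstream is widest in control 2.

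Direct repeats were then sought in every region of the 10 loci. A hexamer was AGGTCA or AGTTCA or GGGTCA or GGTTCA, and repeats with 5, 2 or 1 bases between (DR5, DR2 and DR1) were read on both strands. Peaks of the 4 tumors joined into 138 regions at these loci, of which 3 held a DR5 (2.17%, against 0.513% of 91238 regions in all), 1 a DR2 (0.725% against 0.894%) and 1 a DR1 (0.725% against 0.948%). Per megabase of peak that is 14.5 DR5 matches at the members and 4.67 in all regions. The 3 and 1 and 1 are few, the genes are textbook retinoid genes, and a match shows the letters and no bound receptor. Single hexamers were as dense at the members as elsewhere, at 2.36 and 2.38 per kb. The 5 matches, which lie at different positions, are set side by side with 6 bases either side, hexamers in capitals, in the direction of the gene.
Rarb DR5, chr14:16575507-16575535, mm10, minus strand: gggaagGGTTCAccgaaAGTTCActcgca
Dhrs3 DR5, chr4:144898369-144898397, mm10, plus strand: ccctctGGGTCAcagagAGGTCAgacagg
Rara DR5, chr11:98960002-98960030, mm10, plus strand: caggcgAGTTCAgcaagAGTTCAgccgaa
Crabp2 DR2, chr3:87947519-87947544, mm10, plus strand: gtccccAGTTCAccAGGTCAgggctg
Rxra DR1, chr2:27710723-27710747, mm10, plus strand: tatcagGGGTCAtGGGTCAgagggc

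The tumors that covered each match with a peak differed. The DR5 of Dhrs3, 5.25 kb from its nearest start in an intron, and that of Rara, 0.396 kb before an internal start, lay in peaks in all 4 tumors. The DR5 of Rarb lay in peaks in test 1 and test 2. The DR2 of Crabp2, 1.13 kb before its start, lay in a peak in control 2 alone. The DR1 of Rxra, beside an internal start, lay in peaks in control 1 and test 1. By this cover only the match at Rarb followed the groups, but control 1 also held a peak in that region, 78 bp from the match. The share of matches over all regions that follow the groups was not counted, so nothing more is read from this.

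The other receptor loci were broadly acetylated, and test 2 was the low tumor in each. Rara (chr11:98927818-98974942, plus strand), a receptor present in most tissues, was covered over 23.3% and 22.5% in the control and 22.5% and 15.2% in the test tumors. Its annotated start had no peak in any tumor, but the coding starts 9.88, 9.90 and 32.6 kb into the gene did in every tumor. Peaks covered 69.2% and 64.5% of the gene body in the control and 66.5% and 43.1% in the test tumors, so test 1 sat between the control tumors. The widest interval of the locus was 15.0 kb in control 1, 10.1 kb in control 2 and 11.1 kb in test 1, but 3.10 kb in test 2. Test 2 had the most intervals there, 19 against 10 to 17 in the other tumors, so its cover was broken into shorter intervals. Counted as the caller's own peaks before merging, there were 21 and 32 in the control and 24 and 25 in the test tumors, most in control 2. Without test 2 the difference over the locus went from −4.03 to −0.357 percentage points, and without test 1 to −7.71. Within 10 kb of the annotated start both control tumors were higher, at 40.4% and 44.5% against 36.1% and 27.2%.

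Rxra (chr2:27676440-27762957, plus strand), the common partner of the retinoic acid receptors, followed the same order of tumors. It was covered over 22.6% and 16.0% in the control and 22.5% and 9.37% in the test tumors. Control 1 and test 1 were alike and the groups overlapped. In the gene body the values were 48.1%, 33.8%, 47.7% and 19.7%, and the whole locus held 22 regions of which 11 were in all 4 tumors. The difference over the locus, −3.37 percentage points, was 3.22 without test 2, −0.0504 without control 1, −6.68 without control 2 and −9.95 without test 1. An internal start 34.1 kb into the gene, that of Rxra-203, was covered over 32.0% in control 1 and 67.5% in test 1 and was bare in control 2 and test 2. The myoepithelial marker list split the tumors the same way. What part that list has in the Rxra values was not tested.

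Rarg (chr15:102234938-102257517, minus strand), known for its level in skin epithelium, was covered over 13.9% and 14.2% in the control and 16.3% and 12.3% in the test tumors. Test 1 was the highest and test 2 the lowest, on either side of both control tumors. The 2 kb around its annotated start lay wholly in peaks in every tumor. Its upstream flank was higher in both test tumors, at 6.79% and 7.97% against 10.5% and 9.19%, in a stretch with the starts of Mfsd5 and Espl1.

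Annotated starts of the members differed in whether they were acetylated. Rarg, Rxra, Crabp2, Dhrs3 and Rdh10, 5 of 10, had a peak within 1 kb of the annotated start in all 4 tumors, and over all genes that share was 49.6%. Rara, Rarb, Aldh1a1 and Aldh1a2 had none in any tumor, although several internal starts of Rara had peaks (heat map of coding starts). Aldh1a3 had a peak there in control 1 only. Counting any coding start instead, Rara also had one in all 4 tumors and the count was 6.

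**Figure D4:**
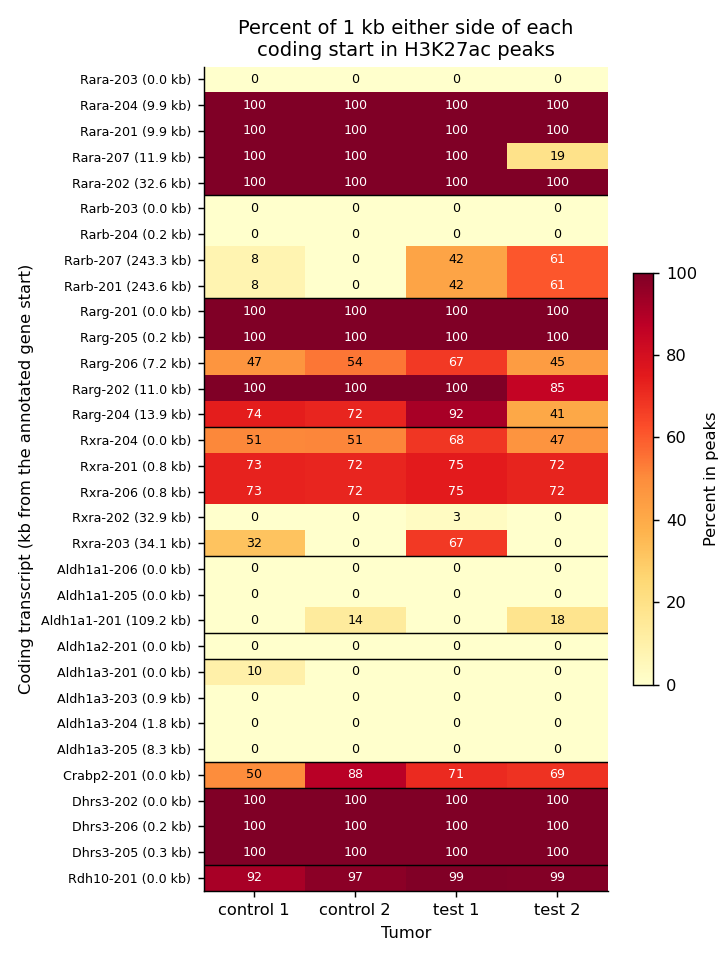
Percent of the 2 kb around each of the 32 distinct coding starts of the 10 genes that lay in H3K27ac peaks (rows, with the distance from the annotated gene start in kb) in each tumor (columns, color from 0 to 100). The 2 internal starts of Rarb read 8 and 0 in the control and 42 and 61 in the test tumors, while those of Dhrs3 are at 100 in every tumor.

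Most regions of the 10 loci were either common to the tumors or seen in few (plot of regions by tumors). Of 138 regions 54 were present in all 4 tumors, or 39.1%, and the share over all 91238 regions was 38.1%. The 3 test-only regions were 2.17% of the member regions against 1.47% of all regions, and the 2 control-only regions were 1.45% against 3.41%. The rule by which the genes were chosen drew on test-only regions, so nothing is read from the first share. By place, 52 regions were intronic, 33 and 32 lay in the upstream and downstream flanks, and 14 lay within 1 kb of a coding start of the member.

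**Figure D5:**
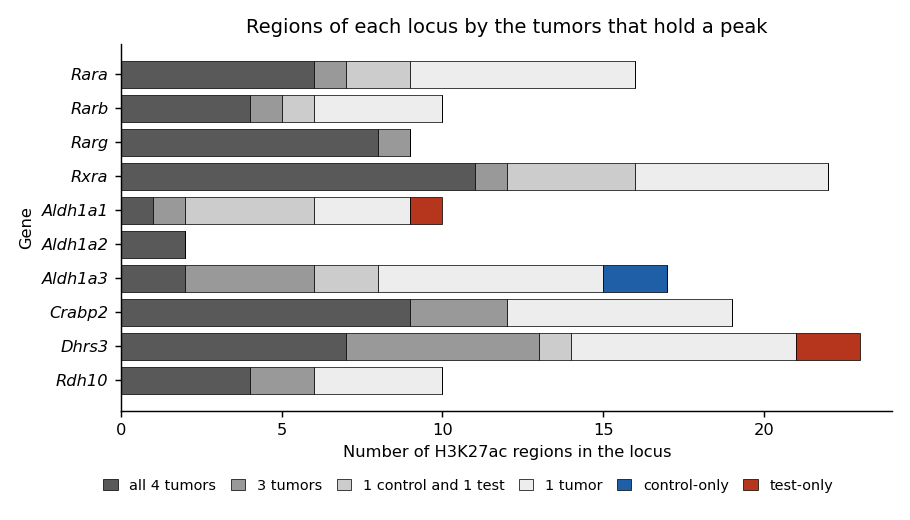
Number of H3K27ac regions in each locus (bar length), split by the tumors that hold a peak in them: gray for regions in all 4, 3, 2 of different groups or 1 tumor, blue for control-only and red for test-only. The 2 blue regions are at Aldh1a3 and the 3 red ones at Aldh1a1 and Dhrs3, and Aldh1a2 has 2 regions in all.

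A wider list of 56 retinoid genes, compiled by role, was read in the same way. Peaks were found in 52 of these loci, 10 were higher in both test tumors and 9 in both control tumors (17.3% and 13.0% over all loci), and the median difference of 0.0194 percentage points was close to that of all loci. Some of these windows overlap, such as those of Adh4 and Adh5, which share 87.8 kb and both counted as higher in the test tumors. Of the degrading enzymes, Cyp26a1 and Cyp26c1 were at 0 in every tumor and Cyp26b1 was covered over 0.498% in test 2 alone. Rxrb, another retinoid X receptor, was even across the tumors at 7.04%, 7.68%, 7.69% and 7.17%. The retinol transporter Stra6 was covered over 0.623%, 2.14%, 1.33% and 0.568%, with overlapping groups.

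The largest differences toward the test tumors among loci without overlap were at a pair of carotenoid genes, a carrier and a transcription factor. Each value is for the gene body plus 50 kb either side, which can take in other genes. Coverage of these loci was not split by nearest start, so the gene behind a difference is not known. Bco2, which cleaves carotenoids, was covered over 14% and 13.6% in the control and 18.9% and 15.9% in the test tumors. Bco1, which cleaves beta-carotene to retinaldehyde, was covered over 3.98% and 2.63% against 5.84% and 4.57%. The carrier Rbp7 was covered over 19.6% and 18.9% against 20.04% and 23.1%. Cebpe, a myeloid transcription factor, was covered over 5.31% and 5.15% against 6.66% and 6.42%. Of the storage and carotenoid group 3 of 4 covered loci were higher in both test tumors, namely Bco1, Bco2 and Lrat, which esterifies retinol and was covered over 0.332% and 0% against 0.628% and 0.656%. The share over all loci was 17.3%, and 4 loci are too few to read more from.

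Large differences the other way were seen at known targets of retinoic acid in the embryo. Hoxb1 was covered over 18.6% and 18.2% in the control and 1.73% and 0% in the test tumors, the widest gap of the list, in a window that reaches into neighbouring Hox genes. Meis1, a partner of Hox proteins, was covered over 14.3% and 11.8% against 11.6% and 1.81%, so that test 1 lay close to control 2. Among the 12 covered target loci 4 were higher in both control tumors and 3 in both test tumors, beside 13.0% and 17.3% over all loci. The endothelial, fibroblast and T cell marker sums given above were also lower in both test tumors than in both control tumors. Gene by gene, 3 of 8 endothelial, 2 of 10 fibroblast and 2 of 7 matched T cell genes were, and 1 T cell gene was higher. The part of these marker lists in the Hox, Meis1 and other target loci was not tested.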

How the data were processed

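Each tumor (pieces of 10 to 30 mg) had been profiled by H3K27ac ChIP-seq. The authors aligned reads with BWA to mm10, called peaks with MACS2 against each tumor's input and, per the file names, cleaned and merged them; tool versions are not given in the sources used here. The deposited lists hold interval positions in base pairs and the names of the caller peaks joined in each interval, with no score, fold or read count. Inputs were not analysed here. Gene positions came from GENCODE M21 and sequences from the GRCm38 reference and RefSeq promoter windows; 0 intervals passed a chromosome end. Coverage was the percent of a window's bases in peaks. Peaks that overlapped or touched were joined into regions, and 1 bp of overlap made a region present in a tumor. Nearest starts were those of any coding transcript. Spreads are SDs over 2 tumors or the 4 pairings. The pairings reuse each tumor, so their SD is not an error of the mean difference. Numbers within a group only name a tumor. The members, the wider list, the marker lists and the naming rule (all members, their group-only regions and coding starts, the 4 wider genes with the largest difference each way without overlap, and Cyp26a1, Cyp26b1, Stra6 and Rxrb) were chosen with earlier results of these data known, and some genes under this rule are not reported here. Python 3.11.15, numpy 2.4.6 and pysam 0.24.0 were used, and the code was tested on simulated data. Alternatives covered flanks, peak width, peak number, joining, presence, neighbouring starts and each tumor.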

Additional observations from a re-analysis of the deposited data

How the results depend on the processing

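Of the 10 retinoid genes, Rara, Crabp2 and Rdh10 kept the sign of their difference in all 10 alternatives. Rarb, Rxra and Aldh1a3 kept it in 9, Aldh1a1 and Aldh1a2 in 8 (Aldh1a2 was 0 in the rest), and Rarg and Dhrs3 in 7. Sizes moved, with ranges of −12.1 to −0.357 for Rara, 2.62 to 11.9 for Crabp2, 0.147 to 5.66 for Rdh10 and −9.95 to 3.22 for Rxra. Aldh1a3 was 0.0683 for the gene body alone, the reverse of its locus, from 1 intronic region with peaks in control 1 and test 2. Members higher in both test tumors numbered 2 with 25 kb flanks, 3 with 100 kb flanks, 2 for gene bodies, 2 with the same number of peaks per tumor and 0 with peaks of at least 1 kb (1 as reported), and those higher in both control tumors numbered 1, 0 and 1 with 25 kb flanks, gene bodies and wide peaks (2 as reported). Test-only regions numbered 1 with wide peaks and 1 with peaks within 1 kb joined, and control-only regions 0 in gene bodies and 1 with joining. Wider-list loci higher in both test tumors numbered 6 with 25 kb flanks, with 100 kb flanks and in gene bodies, and those higher in both control tumors 5 with 25 kb flanks and 3 in gene bodies.

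Leaving out a tumor leaves 1 in its group, so more loci separate by construction. The counts then ranged from 2 to 4 and from 2 to 6 for members higher in test and in control (both highest without test 1), from 8 to 17 and from 5 to 17 for test-only and control-only regions (highest without test 2 and without control 1), and from 14 to 23 and from 11 to 26 for the wider list in test and in control (highest without test 2 and without test 1). The median difference of the members ranged from −1.28 without test 1 to 0.595 without test 2, and the cause was not tested. The promoter count was 5 whichever tumor was left out, and 4 to 6 under the other alternatives. Within 10 kb of the start, a count not planned beforehand, members higher in test ranged from 2 to 5 with 1 tumor left out. Those higher in control ranged from 1 to 3 (highest without test 2 and without test 1). The difference at the Rarb internal start, checked under alternatives chosen after seeing the data, was 38.0 to 56.7 without any 1 tumor, 51.2 with the same number of peaks per tumor and 30.3 with wide peaks. No paired analysis was possible because the labels give no replicate numbers shared by the groups. Read depth, unknown here, limits what a missing peak can show.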

Other observations

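Genes that share a window with the retinoid genes held part of the difference between tumors. Downstream of Crabp2, the region over the start of Nes, which encodes the intermediate filament nestin, held 1271 and 1897 bp of peak in the control and 1542 and 4759 bp in the test tumors, so test 2 alone was wide. A further region 35.6 kb from the Crabp2 start held 4554, 4866, 2673 and 6791 bp, with the highest and the lowest value both in test tumors. Upstream of Rarg, a region 2.26 kb from the start of Mfsd5 held 340 and 558 bp in the control and 1485 and 1218 bp in the test tumors. At Aldh1a3 the region over the start of Lrrk1 held 1683, 1893, 1522 and 946 bp and was lower in both test tumors. These regions were picked after their values were seen, and none was tested.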
